A study of Mus musculus with 15 samples.

Results

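Glycolytic enzymes were followed as a set of 10 genes, Hk1, Hk2, Gpi1, Pfkl, Pfkp, Aldoa, Pgk1, Eno1, Pkm and Ldha, in mouse pancreatic cancer cells and tumors in which glutamine (Gln) use was blocked. The members were chosen by name, as enzymes of the pathway from glucose to lactate, among the 55291 genes of the deposited tables. All 10 were found in the DON, Gln-free and DRP-104 tables and passed the filter on low values in each. They were divided into 6 members of upper glycolysis (Hk1, Hk2, Gpi1, Pfkl, Pfkp and Aldoa) and 4 members of lower glycolysis (Pgk1, Eno1, Pkm and Ldha).

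Upper glycolysis spends ATP: a hexokinase phosphorylates glucose, an isomerase turns the product into fructose phosphate, phosphofructokinase commits it to the pathway, and an aldolase splits it into triose phosphates. Lower glycolysis earns ATP back at the phosphoglycerate kinase and pyruvate kinase steps and ends in pyruvate, which lactate dehydrogenase reduces to lactate so that the pathway can go on. Pancreatic tumors are known for strong glycolytic gene expression and for their use of Gln, and many glycolytic genes are textbook targets of the hypoxia-inducible factors and of Myc.

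The cells were HY19636, a line derived from a pancreatic tumor of a genetically engineered mouse, so that all groups share 1 line and its genotype. In culture, 3 libraries came from control cells, 3 from cells given DON, a broad Gln antagonist, at 25 μM for 24 h, and 3 from cells kept without Gln for 24 h (Gln-free). The labels give no time for the controls. In vivo, HY19636 cells were placed in the pancreas of female B6J mice aged 8 to 10 weeks, whose own stroma, vessels and immune cells are part of the tumor RNA, and 3 tumors came from mice given vehicle and 3 from mice treated with DRP-104, which is converted to DON in the body. The study's methods give a DRP-104 dose of 3 mg per kg daily over 2 cycles of 5 days on and 2 days off. Nothing in the labels says whether the 3 libraries of a culture group were grown separately, so p-values measure only the spread between these libraries.

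The culture libraries held 25.2 to 48.2 M gene reads (M, 1000000) and the tumor libraries 16.3 to 20.7 M. The deepest library, control 3, was the lowest of the 3 controls for 9 of the 10 members in both culture tables. All 6 epithelial markers (Krt8, Krt18, Krt19, Krt7, Epcam and Cdh1) were at 10 or more normalized counts in cells and tumors, and the T cell markers Cd3d, Cd3e, Cd3g, Cd4, Cd8a and Cd2 were at 0 in the 3 control libraries, while the other 2 of that list were read there, Trac at 50.7 to 78.0 and Lck at 36.4 to 52.5 normalized counts. Among the tumors, DRP-104 tumor 3 had the highest value of 8 of 8 T cell markers.

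The members covered a wide range of levels before any treatment. On a per-length scale (reads per kilobase of gene length in 1000000 gene reads), Pkm, the pyruvate kinase, was highest in control cells at 1979 ± 147 (SD, n = 3), followed by Eno1, the enolase, at 1238 ± 115 and Ldha at 1226 ± 108, and the ranges of Eno1 and Ldha overlapped. Aldoa (748 ± 79.2) and Pgk1 (636 ± 34.6) came next, also with overlapping ranges, then Gpi1 (231 ± 17.8), Pfkl (96.0 ± 8.93) and Hk1 (82.5 ± 8.28). The levels of Pfkl and Hk1 overlapped. Hk2, the inducible hexokinase, and Pfkp, the platelet-type phosphofructokinase, were lowest at 17.0 ± 1.22 and 14.0 ± 0.997, and did not overlap with each other. The 10 members together took 1.34% ± 0.109 (SD, n = 3) of all gene reads in control cells, of which the 4 lower members took 1.06% and the 6 upper members 0.276%.

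**Figure D1:**
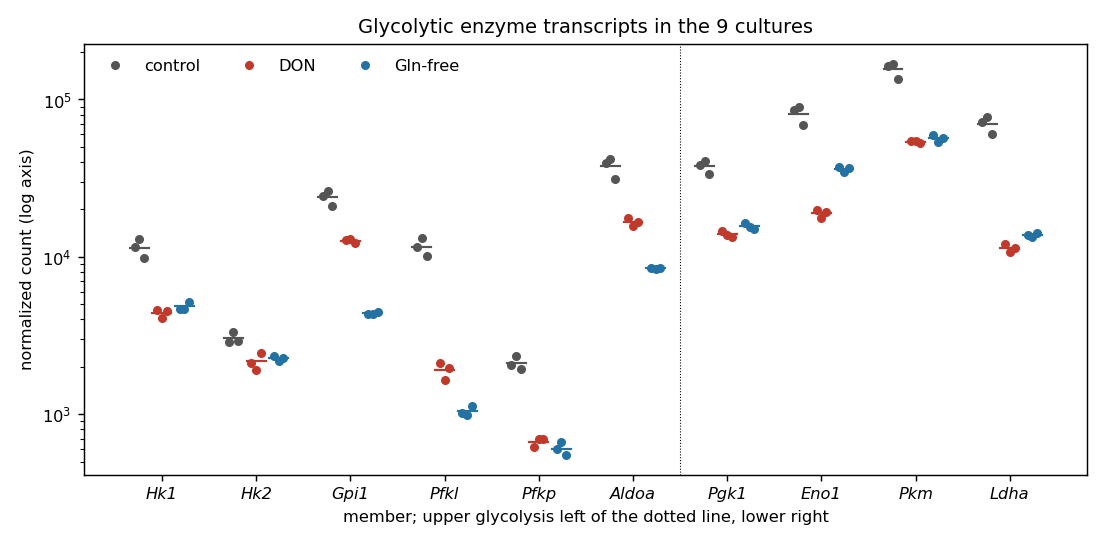
Normalized counts of the 10 members in the 9 cultures, scaled together, on a log axis. Points are libraries (3 a group) and short lines are group means; every DON and Gln-free library lies below the control libraries for each member, and Gpi1, Pfkl, Aldoa and Eno1 separate the 2 treated groups most widely.

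DON lowered every member of the set. In the test of all genes (limma, Benjamini-Hochberg), 10 of 10 members were lower in DON than in control cells at an adjusted p under 0.05, where 34.7% of the 13556 genes tested were called lower. For all 10 the 3 DON libraries lay below the 3 control libraries, as they did for 36.6% of genes. The median log2 fold change of the 10 members was −1.49, against 0.02 over all genes tested. The read share of the set dropped from 1.34% to 0.464% ± 0.0125.

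The members that moved furthest with DON were Ldha, which makes lactate from pyruvate, and Pfkl, the liver-type phosphofructokinase. Ldha stood at 74551, 79737 and 61427 normalized counts in the control libraries and at 12245, 10890 and 11608 in the DON libraries. It was 6.21-fold lower on average, with a log2 fold change of −2.63 (SE 0.11) and an adjusted p of 1.17e-10. Pfkl was read at 11971, 13413 and 10287 in controls and at 2151, 1665 and 1995 with DON. This 6.14-fold difference gave a log2 fold change of −2.62 (SE 0.12, adjusted p = 2.31e-10). For both genes the highest DON library was far below the lowest control library, and of all genes tested 4.18% fell further than Ldha and 4.23% further than Pfkl.

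Eno1, which dehydrates phosphoglycerate to phosphoenolpyruvate, fell next furthest. Its normalized counts were 87895, 91895 and 70350 in controls and 20133, 17984 and 19706 with DON, 4.33-fold lower (log2 fold change −2.11, SE 0.11, adjusted p = 1.56e-09). Pkm, the most abundant transcript of the set, fell from 159816 ± 19086 to 54894 ± 759 (SD, n = 3), a log2 fold change of −1.53. Pgk1, the first ATP-earning kinase, fell by 1.44 and Hk1, the constitutive hexokinase, by 1.38 on the log2 scale. Pfkp fell by 1.66 and Aldoa, the aldolase, by 1.17. These 5 members had adjusted p-values between 9.46e-09 (Pfkp) and 5.87e-07 (Aldoa).

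The smallest changes with DON were those of the upper members Gpi1 and Hk2. Gpi1, the glucose phosphate isomerase, had 24974, 27053 and 21326 normalized counts in controls and 13016, 13224 and 12473 with DON, a log2 fold change of −0.92 (SE 0.10, adjusted p = 1.93e-06). Hk2 had 2946, 3392 and 2973 in controls and 2148, 1947 and 2508 with DON, a log2 fold change of −0.50 (SE 0.11, adjusted p = 8.97e-04). The Hk2 groups did not overlap, but the gap between the highest DON and the lowest control library was narrow beside that of Ldha.

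Withdrawal of Gln also lowered all 10 members. In Gln-free against control cells, 10 of 10 were called lower, where 34.9% of 13390 genes were, and all 10 had their 3 Gln-free libraries below the 3 control libraries, as 37.2% of genes did. The control libraries are those of the DON comparison, so the 2 comparisons are not independent. The median of the 10 members was −1.61, against 0.01 over all genes, and their read share was 0.486% ± 0.0177.

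Of the 10 members, the upper members Pfkl and Gpi1 fell furthest without Gln, followed by Ldha and Aldoa. Pfkl was at 11282, 12669 and 9921 normalized counts in controls and at 1001, 979 and 1112 without Gln. It kept 9.13% of its control level (log2 fold change −3.45, SE 0.10, adjusted p = 8.07e-11), and 1.61% of the genes tested fell further. Gpi1 went from 23536, 25553 and 20568 to 4266, 4269 and 4409, a 5.38-fold difference (log2 fold change −2.42, SE 0.09, adjusted p = 3.70e-10). Aldoa went from 38347, 40463 and 30821 to 8444, 8287 and 8444 (log2 fold change −2.11, SE 0.10, adjusted p = 2.70e-09). The 3 Gln-free libraries lay close together for Gpi1 and Aldoa, far below the controls.

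Ldha was the lower-glycolysis member that moved most without Gln, from 68273 ± 8220 to 13620 ± 353 (SD, n = 3; log2 fold change −2.32, adjusted p = 9.54e-10). Pkm fell by 1.44, Pgk1 by 1.24 and Eno1 by 1.13 on the log2 scale. Eno1 kept 45.4% of its control level without Gln (36993, 34329 and 36425 against 82835, 86801 and 67848), where it kept 23.1% with DON. Pfkp fell by 1.78 and Hk1 by 1.21. Hk2 again changed least, with a log2 fold change of −0.39 (SE 0.09, adjusted p = 0.00140) and 2321, 2140 and 2259 normalized counts against 2777, 3204 and 2867.

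The balance of upper and lower glycolysis differed between the 2 culture treatments. With DON the 6 upper members had a median log2 fold change of −1.28 and the 4 lower members one of −1.82, an upper minus lower difference of 0.54. Without Gln the medians were −1.94 and −1.34, a difference of −0.60. Taken per library, as the mean log2 level of the upper minus that of the lower members relative to controls, the 3 DON libraries had 0.52, 0.52 and 0.61 and the 3 Gln-free libraries −0.41, −0.33 and −0.34, while the controls lay between −0.05 and 0.03. These differences are a description of 10 chosen genes and carry no p-value.

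The sign for DON depended on which enzymes stood for each phase. Over every tested enzyme of a wider glycolysis list, isoenzymes included (11 upper and 13 lower), the DON difference was −0.23, with medians of −1.59 and −1.36, while the Gln-free difference was −0.87. Without Ldha the DON difference was 0.26. With Tpi1 added to the upper members and Gapdh and Pgam1 to the lower ones, an alternative chosen after seeing the data, it was 0.11 for DON and −0.77 for Gln-free cells. Within the upper members the DON changes ranged from −0.50 (Hk2) to −2.62 (Pfkl), a wider span than the distance between the 2 medians.

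**Figure D2:**
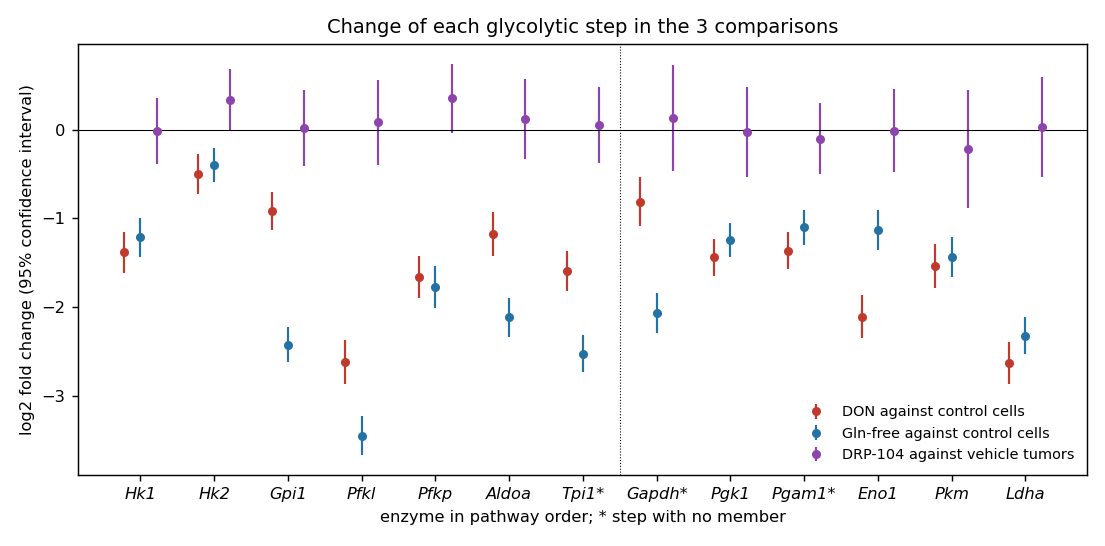
Log2 fold change with its 95% confidence interval (limma) for each enzyme in pathway order, in DON against control cells, Gln-free against control cells and DRP-104 against vehicle tumors; the dotted line parts upper from lower glycolysis. All culture points lie below 0, from −0.39 (Hk2, Gln-free) to −3.45 (Pfkl, Gln-free), and the interval of every tumor point includes 0.

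The 3 steps of the pathway that no member covers also fell in both treatments. Tpi1, which interconverts the triose phosphates, had a log2 fold change of −1.59 with DON and −2.53 without Gln. Gapdh, which opens lower glycolysis, had −0.81 and −2.06, and Pgam1, which moves the phosphate of phosphoglycerate, had −1.36 and −1.10. The adjusted p-values of these 6 changes lay between 4.68e-10 (Tpi1 without Gln) and 7.12e-05 (Gapdh with DON).

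DON and Gln-free cells were then compared directly, with the reads of the 9 cultures put on 1 scale. Of the 10 members, 3 were higher with DON and 2 were lower, where 31.0% of 13514 genes were called higher and 32.3% lower. The 3 higher ones were upper members (Gpi1, Pfkl and Aldoa) and the 2 lower ones were lower members (Eno1 and Ldha). No upper member was called lower and no lower member higher. Neither number of calls exceeded the share of all genes called in that direction.

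On the common scale Gpi1 was at 12780, 13035 and 12262 normalized counts with DON and at 4315, 4321 and 4461 without Gln, a log2 difference of 1.54 (95% confidence interval 1.36 to 1.71, adjusted p = 7.23e-10). Aldoa was at 17729, 15746 and 16555 against 8541, 8387 and 8544, a log2 difference of 0.97 (0.77 to 1.17, adjusted p = 3.44e-07). Pfkl was at 2112, 1641 and 1962 against 1012, 991 and 1125, a log2 difference of 0.86 (0.63 to 1.09, adjusted p = 4.47e-06). In all 3 genes every DON library was above every Gln-free library. The share of all genes with that order was not counted, and 31.0% were called higher.

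Eno1 went the other way, at 19767, 17726 and 19372 with DON and 37418, 34743 and 36858 without Gln. Its log2 difference was −0.94 (−1.14 to −0.74, adjusted p = 5.17e-07). Ldha was at 12022, 10734 and 11411 against 13776, 13428 and 14140, a smaller log2 difference of −0.28 (−0.47 to −0.08, adjusted p = 0.0143). The Ldha groups did not overlap, but its call was lost without DON replicate 2 (adjusted p = 0.0666) or without Gln-free replicate 3 (adjusted p = 0.0506).

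The other 5 members were not called. Their intervals were −0.34 to 0.07 for Hk1, −0.28 to 0.13 for Hk2, −0.08 to 0.38 for Pfkp, −0.34 to 0.01 for Pgk1 and −0.26 to 0.13 for Pkm. The uncovered steps added 2 higher enzymes, Tpi1 (0.97, adjusted p = 1.78e-07) and Gapdh (1.28, adjusted p = 4.17e-08), and a lower one, Pgam1 (−0.23, adjusted p = 0.0213). Among members and uncovered steps the higher enzymes thus were Gpi1, Pfkl, Aldoa, Tpi1 and Gapdh, which is counted to lower glycolysis. Pfkp, the other phosphofructokinase member, was not among them. Of the wider list, 6 of 11 upper enzymes were higher and none lower with DON, and 5 of 13 lower enzymes were higher and 5 lower. Among the isoenzymes, Aldoc had a log2 difference of 3.46 and Pfkm, the muscle-type phosphofructokinase, of 1.08.

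**Figure D3:**
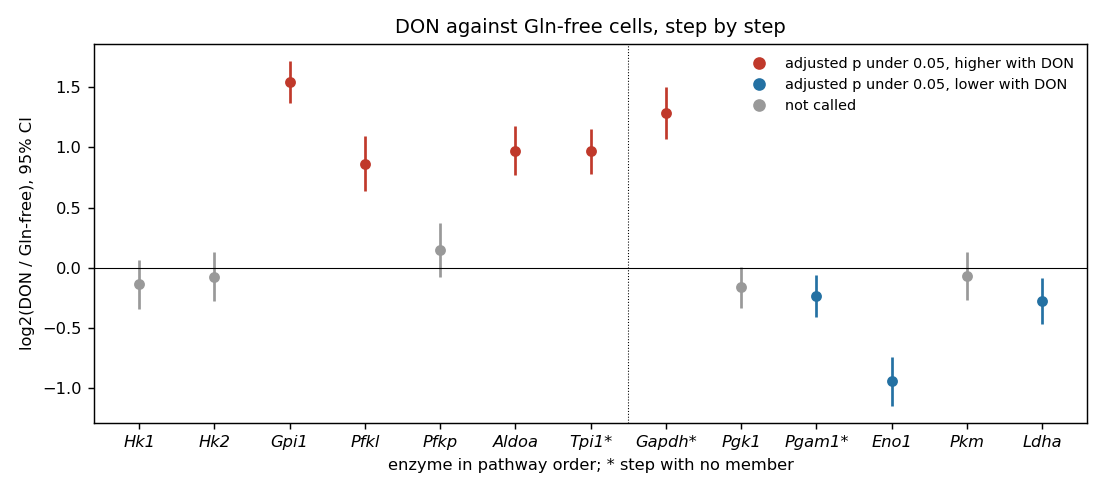
Log2 difference between DON and Gln-free cells with its 95% confidence interval (limma, 9 cultures on 1 scale) for each enzyme in pathway order. Red points (higher with DON) are Gpi1 at 1.54, Pfkl, Aldoa, Tpi1 and Gapdh at 1.28. Blue points (lower with DON) are Pgam1, Eno1 and Ldha, and grey points, Pfkp included, were not called.

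The falls were unequal within 2 pairs of isoenzymes among the members, so the shares within each pair changed. Per length, Hk2 made up 17.1% ± 1.42 (SD, n = 3) of the Hk1 and Hk2 level in control cells, 27.6% ± 1.76 with DON and 26.7% ± 1.28 without Gln. Pfkp made up 12.7% ± 0.451 of the Pfkl and Pfkp level in controls, 22.1% ± 3.23 with DON and 31.7% ± 3.48 without Gln. For both pairs the treated libraries were all above the control libraries, and for Pfkp the Gln-free libraries (28.1% to 35.0%) were also all above the DON libraries (19.0% to 25.4%). Ldhb, the other lactate dehydrogenase gene, had no read in any of the 9 cultures, which left Ldha as the transcript of that step there.

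The order of the levels also changed. Per length, Eno1 stood second in control and Gln-free cells (1238 ± 115 and 606 ± 24.8) and lay below Aldoa (365 ± 21.9) with DON (317 ± 19.2). Without Gln, Aldoa was below Pgk1 and Ldha at 185 ± 2.92. Pkm stayed highest in both treated groups, at 753 ± 5.45 with DON and 786 ± 40.0 without Gln.

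Other genes of glucose use were read from lists drawn up by function. Their counts are read beside all genes tested, of which 34.7% were called lower and 33.3% higher with DON, and 34.9% lower and 34.5% higher without Gln. Of the 24 tested enzymes of the wider glycolysis list, 20 were lower and 3 higher with DON and 20 lower and 2 higher without Gln. Outside the members and the 3 uncovered steps, the 2 largest falls of each phase were Pklr, the liver pyruvate kinase (−4.06 with DON and −3.76 without Gln), Aldoc (−3.01 and −6.44), Bpgm, which makes bisphosphoglycerate (−1.90 and −2.31), and Pfkm (−1.81 and −2.86). Adpgk, an ADP-dependent glucokinase, was higher in both (0.60 and 0.53).

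Of 6 glucose and lactate transport genes tested with DON, 4 were lower and 1 higher, and of 7 tested without Gln, 5 were lower, against 34.7% and 34.9% of all genes called lower. Slc16a3, a lactate exporter, had 2752 normalized counts in controls and 348 with DON, with log2 fold changes of −2.99 and −6.28. Bsg, the chaperone of the lactate carriers, had −0.91 and −0.60, and the glucose carrier Slc2a8 rose with DON (0.78) and fell without Gln (−1.18). The glucose carrier Slc2a1, named after its values were seen, fell in both (−0.52 and −1.01). In the DON comparison Slc2a1 had 6131 normalized counts in controls and Slc2a8 had 235.

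Txnip, an arrestin that restrains glucose uptake, was lower with DON (log2 fold change −0.69, adjusted p = 0.00847) and higher without Gln (2.37, adjusted p = 1.03e-09), and the direct log2 difference was −3.03. Arrdc4, its relative and the other gene of that list, named after its values were seen, had a mean of 20.6 normalized counts in controls and 122 without Gln and passed the test without Gln (2.67) but not with DON (0.48). Among the genes that set the level of the activator of phosphofructokinase, Pfkfb3 was lower with DON (−0.38) and higher without Gln (1.27), and Pfkfb4 went the opposite way (0.66 and −1.47). Tigar, which lowers that activator, was higher in both (0.68 and 0.68).

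Of 13 genes of pyruvate entry into the mitochondrion, 5 were higher and 5 lower with DON, and 5 were higher and 6 lower without Gln, shares near those of all genes. Pdk1, the kinase that shuts pyruvate dehydrogenase, was lower in both (−3.45 and −3.38), as was Pdk3 (−1.40 and −2.30). The largest rises were those of Pcx (0.87) and Mpc2 (0.73) with DON and of Dld (1.19) and Pdhb (0.73) without Gln. Mpc2, a part of the pyruvate carrier, was also higher without Gln (0.64). Of 7 pentose phosphate genes, 4 were lower with DON and 5 without Gln, against the same shares of all genes, led by G6pdx (−1.71 and −2.56) and Pgd (−1.57 and −2.40), while Rpe was higher (1.07 and 1.32). All 3 genes of the serine branch, which leaves glycolysis at phosphoglycerate, were higher with DON, where 33.3% of all genes were, Psph most (2.16). Without Gln, Psph (0.85) and Psat1 (0.34) were higher and Phgdh lower (−0.25). Of 3 gluconeogenesis genes tested, the mitochondrial Pck2, which makes phosphoenolpyruvate, was higher with DON (1.15) and lower without Gln (−1.17). G6pc3 went the same way (0.51 and −0.45). Fbp2 was lower in both (−5.13 and −5.05), with 237 normalized counts in controls and 6.62 with DON.

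All 6 epithelial markers were also lower in both treatments, with a median log2 fold change of −2.47 with DON and −1.44 without Gln. Their summed level was 116931 to 125209 normalized counts in DON and 393347 to 511169 in control libraries, and it was 158259 to 173641 in Gln-free against 379354 to 481740 in control libraries scaled with them. Their part in the change of the members was not tested. These cultures hold 1 cell line. In bulk RNA, a lower level in all its cells and a lower level in a part of them cannot be told apart.

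Over the 9 cultures, which form 3 groups, the genes whose log2 level followed the mean of the 6 upper members most closely were Acadl, Myo7b, Kank2, Manba and Dhcr7, with Pearson correlations of 0.998 for each. For the 4 lower members they were Stard10 (0.999), Mgst3 (0.998), Tuba1c (0.998), Grb7 (0.998) and Paqr7 (0.997). These correlations describe 3 group levels of the same libraries among 10366 genes.

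Processed copies of the members were checked because they can take reads from the parent gene. Of the 6 copies in the tables the highest, Eno1b, reached at most 0.113% of the reads of Eno1 in any library.

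The sequences upstream of the members are shown because all 10 fell together. They are the 250 bases before the annotated start in the RefSeq promoter table (GRCm38.p6), which held 17 windows for the 10 members. Those printed are of Ldha and Pfkl, which fell furthest with DON, of Pgk1, whose change lay near the median of the set with DON, of Gpi1, which differed most between the treatments, and of Hk2, which changed least. Capitals mark ACGTG and GCGTG, the core letters of the hypoxia response element, on either strand (CACGT and CACGC on the other one), and CACGTG, the E-box, which holds ACGTG on both strands.

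The Ldha window lies at chr7:46845554-46845803 (plus strand), the Pgk1 window at chrX:106186850-106187099 (plus strand), the Pfkl window at chr10:78009808-78010057 (minus strand), the Gpi1 window at chr7:34230337-34230586 (minus strand) and the Hk2 window at chr6:82774455-82774704 (minus strand), each 5′ to 3′ on the strand of the gene.
Ldha: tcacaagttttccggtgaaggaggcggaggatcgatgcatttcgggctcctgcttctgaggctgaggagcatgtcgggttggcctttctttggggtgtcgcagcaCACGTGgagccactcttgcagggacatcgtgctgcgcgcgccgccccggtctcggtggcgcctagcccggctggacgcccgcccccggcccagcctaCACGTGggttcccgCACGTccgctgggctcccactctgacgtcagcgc
Pgk1: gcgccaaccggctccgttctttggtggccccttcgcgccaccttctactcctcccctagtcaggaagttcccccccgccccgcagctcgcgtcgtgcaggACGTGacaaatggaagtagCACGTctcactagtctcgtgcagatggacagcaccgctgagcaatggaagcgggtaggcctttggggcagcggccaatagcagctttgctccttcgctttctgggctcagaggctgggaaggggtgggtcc
Pfkl: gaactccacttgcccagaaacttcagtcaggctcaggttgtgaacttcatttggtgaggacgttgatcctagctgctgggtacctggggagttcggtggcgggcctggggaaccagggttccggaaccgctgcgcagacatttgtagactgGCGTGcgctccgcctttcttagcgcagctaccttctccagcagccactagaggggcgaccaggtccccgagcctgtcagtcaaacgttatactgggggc
Gpi1: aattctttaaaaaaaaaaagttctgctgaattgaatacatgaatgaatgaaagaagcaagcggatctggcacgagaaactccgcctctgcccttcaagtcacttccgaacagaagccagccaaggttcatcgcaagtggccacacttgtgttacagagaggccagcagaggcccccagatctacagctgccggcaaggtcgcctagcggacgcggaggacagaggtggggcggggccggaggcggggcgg
Hk2: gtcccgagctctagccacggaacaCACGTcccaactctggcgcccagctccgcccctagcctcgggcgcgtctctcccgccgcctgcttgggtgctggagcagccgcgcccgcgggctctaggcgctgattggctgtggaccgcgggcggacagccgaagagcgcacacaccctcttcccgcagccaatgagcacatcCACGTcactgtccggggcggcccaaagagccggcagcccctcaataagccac

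The printed Ldha window, 1 of 2 for that gene, held CACGTG 2 times and ACGTG 5 times, of which 4 lie within the E-boxes. The Ldha window not printed held CACGTG and ACGTG 0 times and GCGTG 1 time. Pgk1 and Hk2 each held ACGTG 2 times, Pfkl held GCGTG 1 time, and Gpi1 held none of these letters. Over all members, ACGTG was in 6 of 17 windows (5 members) and GCGTG in 7 (5 members), against 16.6% and 28.2% of the 32851 windows of that length in the table. Some member windows overlap, so that 1 ACGTG match of Aldoa and 2 GCGTG matches of Eno1 each lie in 2 of the windows counted. CACGTG was in 1 member window and in 6.02% of all windows. TGATGNAA, the core of the C/EBP-ATF response element, was in no member window and in 3.45% of all. A relation between the matches and the changes of the members was not tested. A match is a description of letters and not a binding site, and 5 members have more than 1 annotated start.

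In tumors, no member was called. By limma, 0 of 10 members and 0 of 15454 genes (0%) passed an adjusted p under 0.05 between DRP-104 and vehicle tumors. At an unadjusted p under 0.05 there were 775 genes, and none of them was a member. edgeR on the recovered reads called 0 genes and DESeq2 called 70, again with 0 of 10 members. Log2 fold changes ran from −0.22 (Pkm) to 0.35 (Pfkp), with a median of 0.02 against −0.01 over all genes.

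Pkm was read at 48208, 58839 and 67034 normalized counts in vehicle tumors and at 53885, 64589 and 34692 in DRP-104 tumors. Ldha was at 25286, 26393 and 27616 against 33092, 31198 and 18954. For Pkm the DRP-104 tumors lay within or below the range of the vehicle tumors, and for Ldha they lay on both sides of it. DRP-104 tumor 2 was the highest of the 6 tumors for 8 of the 10 members, and DRP-104 tumor 3 was the lowest for 7. Of the 6 tumors, DRP-104 tumor 3 had the highest summed T cell (1344) and epithelial (173678) markers. It also had the lowest summed fibroblast (19053) and endothelial (1122) markers. Without DRP-104 tumor 3 the 10 log2 fold changes ran from 0.04 to 0.45, and none was called.

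Pfkp was the only member whose groups did not overlap, as 10.6% of all genes did not, at 2412, 2242 and 2161 in vehicle and 2631, 3652 and 2533 in DRP-104 tumors (95% confidence interval −0.04 to 0.74, adjusted p = 0.916). Hk2 was next, at 2085, 2678 and 2018 against 2674, 2966 and 2812, where 1 vehicle tumor lay just above the lowest DRP-104 tumor (−0.02 to 0.68, adjusted p = 0.916). For Pfkl (0.08), Gpi1 (0.02), Aldoa (0.12), Hk1 (−0.02), Pgk1 (−0.03) and Eno1 (−0.01) the differences were smaller than the spread between tumors. The lower bounds of the 10 intervals ran from −0.89 (Pkm) to −0.02 (Hk2), and for all 10 members the log2 fold change with DON and that without Gln lay below the tumor interval.

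Upper and lower glycolysis did not part in tumors beyond the spread between libraries. The upper median was 0.10 and the lower median −0.02, a difference of 0.12, and the per-library values were −0.02, 0.21 and 0.43 for DRP-104 and 0.08, −0.03 and −0.06 for vehicle tumors. The highest of these, 0.43, was DRP-104 tumor 3. Without that tumor the medians were 0.24 and 0.15. The 10 members took 0.970% ± 0.0665 of reads in vehicle and 0.945% ± 0.190 in DRP-104 tumors.

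**Figure D4:**
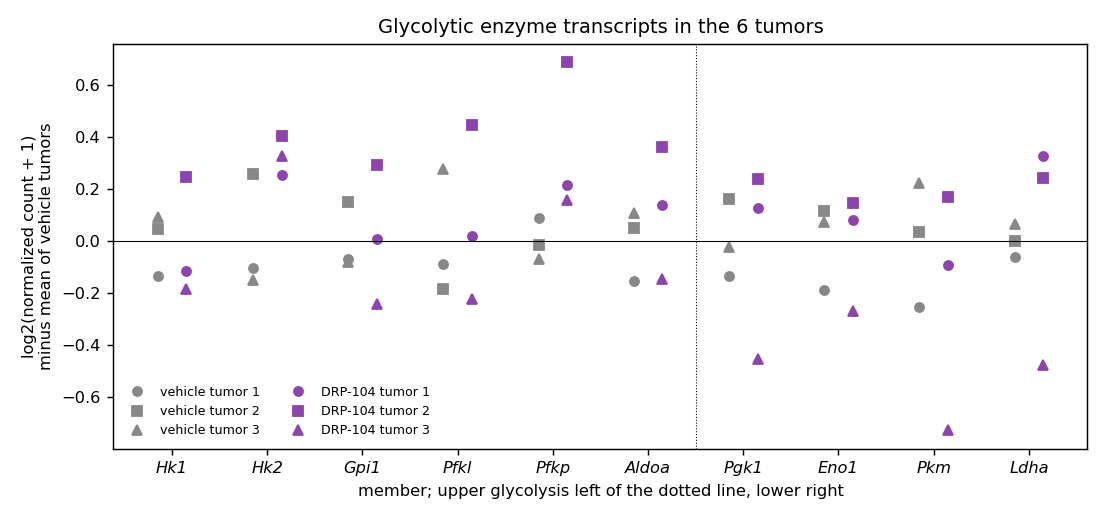
Log2 normalized count (plus 1) of each member in the 6 tumors, minus the mean of the 3 vehicle tumors; marker shapes give the tumor number and colours the group. Grey (vehicle) and purple (DRP-104) points overlap for every member but Pfkp, and DRP-104 tumor 3 lies lowest for 7 of 10.

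Marker levels of other cell types are given beside these values, and by limma no marker of the T cell, fibroblast, endothelial or epithelial lists was called (0 of 7, 0 of 8, 0 of 5 and 0 of 6 tested). The summed level of 8 T cell markers was 47.3 to 1344 normalized counts in DRP-104 and 57.5 to 100.1 in vehicle tumors. The summed level of 8 fibroblast markers was 19053 to 33091 in DRP-104 and 39486 to 83521 in vehicle tumors, that of 5 endothelial markers was 1122 to 1560 against 1800.0 to 2046, and that of the 6 epithelial markers was 130197 to 173678 against 116747 to 161328. The fibroblast and endothelial ranges did not overlap between the groups, and the T cell and epithelial ranges did. Their part in the members' values was not tested.

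The tumor and culture effects were set against each other in 1 fit with an interaction term. The change with DRP-104 in tumors was higher than the change with DON in cells for 10 of 10 members, where 19.1% of 15070 genes were called higher. The differences ran from 0.83 for Hk2 (95% confidence interval 0.43 to 1.23, adjusted p = 0.00401) to 2.70 for Pfkl (2.16 to 3.24, adjusted p = 6.77e-06), with Ldha at 2.66 and Eno1 at 2.09. The median was 1.33 over the upper and 1.75 over the lower members. Drug, dose, time and the cells sampled all differ between the experiments and cannot be told apart. The tumor change was not tested against that of Gln-free cells.

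**Figure D5:**
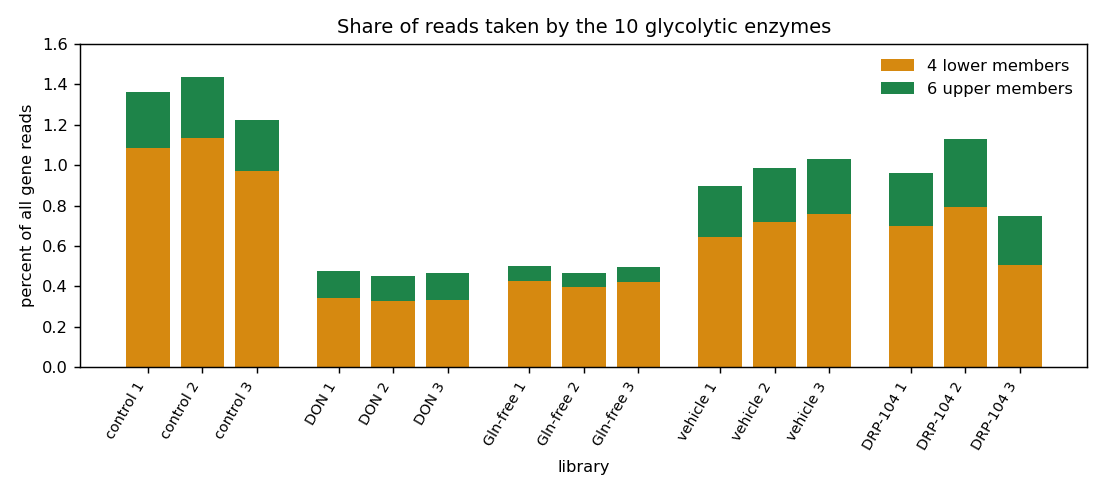
Percent of all gene reads taken by the 4 lower (orange) and 6 upper (green) members in each of the 15 libraries. Control cells lie at 1.22% to 1.44%, DON and Gln-free cells at 0.452% to 0.499%, and the tumors at 0.749% to 1.13%.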

How the data were processed

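The deposited values of the 15 libraries are gene counts that the authors divided by DESeq2 size factors, a normalized signal, with 1 table each for DON, Gln-free and DRP-104. A second tumor table holds FPKM values that the authors made per kilobase of gene and 1000000 fragments. The submitters' processing notes name CASAVA, HISAT2, STAR 2.5, DESeq2 and GRCm39, while the FPKM coordinates match GRCm38. Control columns of the culture tables carry a vehicle name under a control heading and were taken as the control group by that heading. FPKM columns were matched to groups by their names only. Their deviations from the mean over all tumors correlated with those of the same-named count columns at −0.245 to 0.107 over 10277 genes. Such deviations hold group differences too, so these values do not bear out the group match, which rests on the names.

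Whole reads were recovered from the steps of the values. At least 99.9% of values, zeros included, and at least 99.767% of non-zero values lay within 0.0051 of a whole multiple of the step. The control reads were equal in both culture tables for 55291 of 55291 genes. Genes with a mean of at least 10 were tested on log2(value + 1) in R 4.3.3 with the moderated linear models of limma 3.58.1 (mean-variance trend), with Benjamini-Hochberg adjustment over all genes tested, a threshold of 0.05 and 95% confidence intervals. Fold changes of low genes are understated by the added 1. DON and Gln-free cells were compared over 9 libraries whose recovered reads shared 1 set of median-of-ratios factors, and tumors and cells by an interaction contrast. The scripts were tested on simulated data. Alternatives used edgeR 4.0.16 and DESeq2 1.42.0 on recovered reads (rounded to whole numbers), pseudocounts of 0.1 and 10, no filter or a mean of at least 100, quantile normalization, a replicate block, a threshold of 0.01, the FPKM table and leaving out each library. Members and lists were chosen with earlier results of these data known. Named were all members, Tpi1, Gapdh and Pgam1, and from each other list at most the 2 largest rises and 2 largest falls among called genes with a mean of at least 100. Same-numbered libraries did not deviate together (correlations −0.03, −0.04 and 0.05 for DON, 0.13, −0.12 and −0.13 for Gln-free, −0.44, 0.05 and −0.46 for tumors), so no pairing was used. The full genotype of the line is not reported here. Library depth was 16.3 to 48.2 M gene reads (M, 1000000).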

Additional observations from a re-analysis of the deposited data

Results flagged for a closer look

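In each of 10 members the change in DRP-104 tumors differed from the change in DON cells by the interaction test (limma, tumor minus cell effect, log2). All 10 were called higher, as were 19.1% of the 15070 genes tested. The differences were 1.36 for Hk1, 0.83 for Hk2, 0.93 for Gpi1, 2.70 for Pfkl, 2.01 for Pfkp and 1.29 for Aldoa among upper members, and 1.41 for Pgk1, 2.09 for Eno1, 1.32 for Pkm and 2.66 for Ldha among lower members. Among the uncovered steps they were 1.65 for Tpi1, 0.94 for Gapdh and 1.26 for Pgam1. Adjusted p-values ran from 6.77e-06 (Pfkl) to 0.0231 (Gapdh). The call of Gapdh was lost without DON replicate 3, control replicate 1 or 2 or vehicle replicate 1, with adjusted p-values of 0.0596, 0.0505, 0.0630 and 0.0528.

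The effect of DON differed from that of Gln withdrawal by the direct test in 5 members (DON minus Gln-free, log2). Of all 13514 genes tested, 31.0% were called higher with DON and 32.3% lower. The differences were 1.54 for Gpi1, 0.86 for Pfkl, 0.97 for Aldoa, −0.94 for Eno1 and −0.28 for Ldha. The same test gave 0.97 for Tpi1, 1.28 for Gapdh and −0.23 for Pgam1. The call of Pgam1 was lost when DON replicate 2 or 3 or Gln-free replicate 1 or 3 was left out, with adjusted p-values of 0.0614, 0.0577, 0.0636 and 0.0502.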

How the results depend on the processing

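All 10 members were called lower with DON and without Gln under each of 15 alternatives, and none of 10 was called in tumors under 16. Quantile normalization moved the median of all genes with DON from 0.02 to 0.13, and all 10 members were still called lower, with log2 fold changes of −2.47 to −0.42. With an unadjusted p under 0.05 there were at most 2 members in tumors under any of the 16. In tumors the number of genes called was 0 by limma and 70 by DESeq2. The interaction call held for 10 of 10 members under 15 alternatives, while the number of all genes called was 4989 and at an adjusted p under 0.01 it was 3007.

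Between DON and Gln-free cells 4 to 6 of the 10 members were called. The 3 higher upper members were called in each of 10 alternatives. Of the lower members 1 was called lower at an adjusted p under 0.01, and 1 to 2 with each library left out. With only the 6 treated libraries Pgk1 passed as well (−0.16, adjusted p = 0.0168).

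The upper minus lower median was 0.54 with DON. It reversed to −0.23 over every tested enzyme of the wider list, and was 0.26 without Ldha and 0.11 with Tpi1, Gapdh and Pgam1. For Gln-free cells it was −0.60, and −0.70, −0.87 and −0.77 under those 3 choices in the order Ldha, wider list and added steps, the last chosen after seeing the data. It was −0.36 for the mean over genes. Leaving out each library gave 0.52 to 0.57 with DON, −0.66 to −0.57 without Gln and 0.08 to 0.22 in tumors.

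The replicate numbers of the labels did not pair the libraries. With the replicate block 10 members were lower with DON, 10 without Gln, 0 were called in tumors, 5 between DON and Gln-free cells and 10 in the interaction, and the number of genes called went from 9226 to 9216, from 9292 to 9056, stayed at 0, went from 8549 to 8456 and from 4989 to 4075. The block changed 1 call of those named, Gapdh in the interaction (adjusted p = 0.0520). In the FPKM table Hk1 (0.37), Gpi1 (−0.21), Eno1 (0.18) and Pkm (0.36) took the other sign without passing the test, and the cause was not tested. With 3 libraries a group, an exact permutation test of a single gene cannot go below 0.1. The precision in tumors is set by the spread between tumors.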

Other observations

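The FPKM table of the tumors was matched to groups by column names alone and not to single tumors of the count table. It gave Pkm the highest level of the 10 members at 1181 ± 199 FPKM in vehicle and 1543 ± 469 in DRP-104 tumors (SD, n = 3). Eno1 was at 748 ± 87.8 and 865 ± 219, Ldha at 758 ± 130 and 769 ± 98.1, and Aldoa at 672 ± 139 and 736 ± 138. Hk2 and Pfkp were lowest, at 27.4 ± 6.46 and 33.9 ± 9.06 for Hk2 and 32.2 ± 8.27 and 38.4 ± 8.44 for Pfkp. None of the 10 members passed the test in that table.

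Ldhb was read in tumors only, at 2.65 ± 1.75 reads per kilobase in 1000000 gene reads in vehicle and 0.746 ± 0.0417 in DRP-104 tumors, and made up 0.160% to 0.591% of the Ldha and Ldhb level in vehicle and 0.0751% to 0.133% in DRP-104 tumors. The ranges did not overlap, and Ldhb did not pass the test (log2 fold change −1.56, adjusted p = 0.916). Per length, Pfkp made up 27.2% ± 3.99 of the Pfkl and Pfkp level in vehicle and 31.0% ± 1.46 in DRP-104 tumors (SD, n = 3), beside 12.7% ± 0.451 in control cells, whose values come from a separate table.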
